A study of Saccharomyces cerevisiae with 9 samples.

Results

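The 8 genes described here encode the route by which *Saccharomyces cerevisiae* carries pyruvate into mitochondria and turns it into acetyl-CoA. They are 3 mitochondrial pyruvate carrier genes, MPC1 (YGL080W), MPC2 (YHR162W) and MPC3 (YGR243W), and 5 genes of the pyruvate dehydrogenase complex, PDA1 (YER178W), PDB1 (YBR221C), LAT1 (YNL071W), LPD1 (YFL018C) and PDX1 (YGR193C), out of 6357 rows in the count table. MPC3 was picked because it was higher with the antifoam labelled Ind_Z, so its values in comparisons with Ind_Z are a description and carry no test. The other 7 genes were taken for their function. All 8 passed the filter on low counts, and none overlapped another gene in the RefSeq annotation of assembly R64.

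Total RNA depleted of ribosomal RNA was sequenced from CAT-1, an industrial strain of Brazilian fuel-ethanol plants, in 9 libraries. There were 3 from fermentations given the antifoam Ind_Z, 3 from fermentations given the antifoam Ind_B and 3 from fermentations labelled control. In all groups the yeast was reused through 5 fed-batch rounds on sugar cane molasses with an acid treatment between rounds, and was sampled 4 hours into the last round. The labels give the antifoams only by code and say nothing of their composition, dose or whether the libraries of a group came from separate cultures, so p-values measure the spread between these libraries, which may be technical.

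Pyruvate made by glycolysis can be decarboxylated in the cytosol on the way to ethanol, or enter mitochondria through a carrier of the inner membrane made of Mpc1 and 1 partner. Mpc2 is the partner used during growth on fermentable sugar and Mpc3 the partner used during respiratory growth. Inside the matrix the pyruvate dehydrogenase complex makes acetyl-CoA for the tricarboxylic acid cycle. In fermenting yeast the complex carries only a small part of the flow from pyruvate, and the mitochondrial pool also feeds branched-chain amino acid synthesis.

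MPC2 and MPC3 are paralogs, so the first question was whether their reads could be told apart. Their coding sequences in R64 were identical at 277 of 389 aligned bases (71.2%), and the longest run they shared was 14 bases. The most alike 90-base stretch is shown because any read confused between the genes would most likely come from it. Bases shared at a position are in capitals and differing bases in lower case, both read on the plus strand of the S288C reference genome, R64, at chrVII:977356-977445 for MPC3 and chrVIII:423092-423181 for MPC2.
MPC3: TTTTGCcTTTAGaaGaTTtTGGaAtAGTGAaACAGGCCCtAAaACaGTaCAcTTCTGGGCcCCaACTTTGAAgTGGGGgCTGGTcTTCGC
MPC2: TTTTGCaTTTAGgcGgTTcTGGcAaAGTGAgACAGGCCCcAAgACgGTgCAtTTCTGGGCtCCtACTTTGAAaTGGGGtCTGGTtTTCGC
Even here 72 of 90 bases were identical and the differences were spread through the stretch. None of the other 6 genes matched any other coding sequence of R64 in a BLAST search. The CAT-1 genome itself was not used here.

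Levels are given as CPM, counts relative to library totals scaled with TMM factors, and changes are log2 fold changes ± standard error from edgeR's quasi-likelihood fit to all 9 libraries. A gene was called at a Benjamini-Hochberg adjusted p under 0.05 over 6137 genes. CPM are shares of a library's reads, so the CPM of a gene can also move when other transcripts change. Each library holds RNA of many cells, so less RNA per cell and fewer cells expressing a gene cannot be told apart. Totals ranged from 5900571 to 15091487 counts in Ind_Z, 9492360 to 17943055 in Ind_B and 6585639 to 18245935 in control libraries. Spearman correlations between libraries of a group over genes were 0.993 to 0.995 in Ind_Z, 0.976 to 0.988 in Ind_B and 0.954 to 0.995 in control. The control libraries are called control1, control12 and control13, as in the table's columns. The library control13 stood apart: the median of 136 cytosolic ribosomal protein genes was 0.99 higher there, on the log2 scale, than in the mean of control1 and control12. Results that rest on control13 are therefore given with and without it.

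MPC3, encoding the respiratory partner, was the member with the widest range, 1.98 on the log2 scale between its lowest and highest library. Its choice for a rise in Ind_Z favours a wide range. MPC3 was at 15.0, 16.6 and 22.3 CPM in Ind_Z replicates 1, 2 and 3. In Ind_B replicates 1, 2 and 3 it was at 11.2, 15.3 and 7.61 CPM. In control1, control12 and control13 it was at 5.53, 6.50 and 8.23 CPM. All Ind_Z libraries lay above all control libraries, whereas Ind_B overlapped both. Ind_B replicate 2 was above Ind_Z replicate 1, and Ind_B replicate 3 was under control13. The overlap with control rested on control13, since every Ind_B library lay above control1 and control12.

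The group means of MPC3 were 18.0 ± 3.82 CPM in Ind_Z, 11.4 ± 3.84 CPM in Ind_B and 6.75 ± 1.37 CPM in control (SD, n = 3 each). The fitted change was 1.45 ± 0.28 for Ind_Z against control, a 2.73-fold higher level, and 0.68 ± 0.26 for Ind_Z against Ind_B. Leaving out each library in turn gave 1.25 to 1.59 for Ind_Z against control. For Ind_B against control, which shares the control libraries with the choice of this gene, the change was 0.77 ± 0.28 (adjusted p = 0.197 in edgeR's quasi-likelihood test, and 0.087 to 0.416 over the alternatives run), so MPC3 was not called there. Without control13 the change for Ind_B against control was 0.88 ± 0.29 (adjusted p = 0.212 in the same test), also not called. The levels of MPC3 rest on few reads: 94 to 216 counts in Ind_Z, 154 to 162 in Ind_B and 41 to 107 in control libraries.

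MPC2, encoding the partner used in fermentation, was far more abundant. It was at 163, 191 and 204 CPM in Ind_Z and at 133, 119 and 95.6 CPM in Ind_B replicates 1, 2 and 3. In control1 and control12 it was at 109 and 108 CPM, but in control13 at 291 CPM, 2.68 times the mean of the other controls. Every Ind_Z library thus lay above every Ind_B library and above control1 and control12, and below control13.

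With all libraries MPC2 changed by 0.14 ± 0.34 for Ind_Z against control, by −0.54 ± 0.34 for Ind_B against control and by 0.68 ± 0.34 for Ind_Z against Ind_B (adjusted p = 0.85, 0.414 and 0.233 in edgeR's quasi-likelihood test), and none was called. Without control13 it was called higher in Ind_Z, by 0.78 ± 0.15 against control (adjusted p = 0.00708) and by 0.70 ± 0.13 against Ind_B (adjusted p = 0.00429), in the same test. Its change for Ind_B against control was then 0.08 ± 0.15 (adjusted p = 0.867), with the sign turned. Removing control13 hardly moved the difference between the antifoams, and its standard error fell to 0.13, against 0.34 with all libraries.

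MPC1, encoding the subunit needed with either partner, had no such pattern. It was at 17.8, 17.9 and 21.6 CPM in Ind_Z, at 20.7, 25.7 and 16.0 CPM in Ind_B, and at 24.2, 17.5 and 19.5 CPM in control1, control12 and control13. The groups overlapped in every comparison. Its changes were −0.10 ± 0.20 for Ind_Z against control, 0.02 ± 0.20 for Ind_B against control and −0.11 ± 0.20 for Ind_Z against Ind_B, none called (adjusted p = 0.819, 0.974 and 0.738 in edgeR's quasi-likelihood test).

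**Figure D1:**
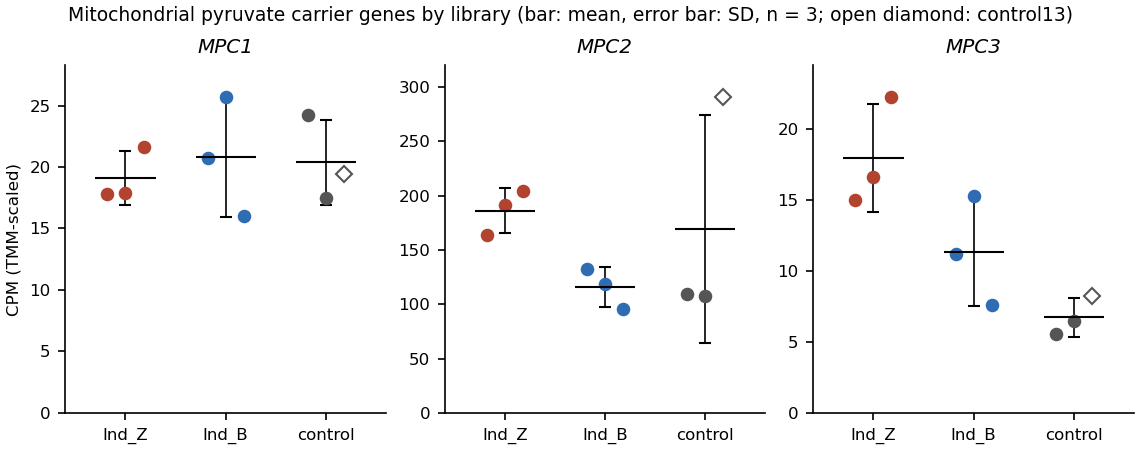
CPM of the pyruvate carrier genes in each library (vertical axis, linear, from 0) for Ind_Z, Ind_B and control; bars are means, error bars SD of 3 libraries, and the open diamond is control13. MPC3 in Ind_Z (15.0 to 22.3) sits above all controls (5.53 to 8.23), MPC2 in control13 (291) sits above every other library, and MPC1 overlaps between groups.

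The balance between the carrier partners differed between the libraries. MPC3 took 8.40%, 7.99% and 9.85% of the MPC2 and MPC3 counts in Ind_Z replicates 1, 2 and 3, and 7.75%, 11.4% and 7.37% in Ind_B replicates 1, 2 and 3. It took 4.81%, 5.68% and 2.75% in control1, control12 and control13. All antifoam libraries were above all controls, and Ind_Z and Ind_B overlapped. No test is given, since MPC3 was picked for its rise in Ind_Z.

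The 95% exact (Clopper-Pearson) binomial intervals of that share cover counting error only. At the edge of the gap they overlapped: they ran from 6.50% to 9.68% in Ind_Z replicate 2 and from 6.31% to 8.54% in Ind_B replicate 3, against 4.57% to 6.97% in control12. The low share in control13 went with its high MPC2 level and not with a low MPC3 level. Per length, the summed partners were at 453, 529 and 573 CPM per kb in Ind_Z, at 366, 340 and 263 CPM per kb in Ind_B, and at 293, 291 and 764 CPM per kb in control1, control12 and control13. Relative to MPC1 per length, that sum was 9.99 to 11.6 times as high in Ind_Z, 5.20 to 6.93 times in Ind_B, and 4.75, 6.56 and 15.4 times in control1, control12 and control13. Among the antifoam libraries these ratios did not overlap.

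The next question was whether the enzyme that uses the imported pyruvate moved with its carrier. PDA1 and PDB1 encode the alpha and beta subunits of the part that decarboxylates pyruvate. PDA1 was at 429, 417 and 419 CPM in Ind_Z, at 324, 291 and 358 CPM in Ind_B, and at 350, 393 and 642 CPM in control1, control12 and control13. PDB1 was at 181, 177 and 170 CPM in Ind_Z, at 121, 129 and 155 CPM in Ind_B, and at 135, 155 and 284 CPM in control1, control12 and control13. For both genes the Ind_Z libraries were close together and above every Ind_B library, above control1 and control12, and below control13.

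LAT1 encodes the acetyltransferase that forms the core of the complex, and LPD1 the lipoamide dehydrogenase that reoxidises the lipoyl groups. LAT1 was at 323, 365 and 305 CPM in Ind_Z, at 228, 204 and 297 CPM in Ind_B, and at 289, 315 and 471 CPM in control1, control12 and control13. LPD1 was at 232, 235 and 230 CPM in Ind_Z, at 150, 178 and 196 CPM in Ind_B, and at 189, 212 and 355 CPM in control1, control12 and control13. Both were above every Ind_B library in every Ind_Z library, and for LAT1 Ind_Z replicates 1 and 3 lay on either side of control12.

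PDX1, encoding the protein that binds Lpd1 to the Lat1 core, did not share the high value in control13. It was at 70.3, 79.9 and 64.3 CPM in Ind_Z, at 59.5, 55.4 and 71.7 CPM in Ind_B, and at 63.6, 68.9 and 55.6 CPM in control1, control12 and control13. The groups overlapped, and control13 was the lowest control. Control13 was at 0.839 times the mean of control1 and control12 for PDX1, against 1.73 for PDA1, 1.96 for PDB1, 1.56 for LAT1 and 1.78 for LPD1.

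**Figure D2:**
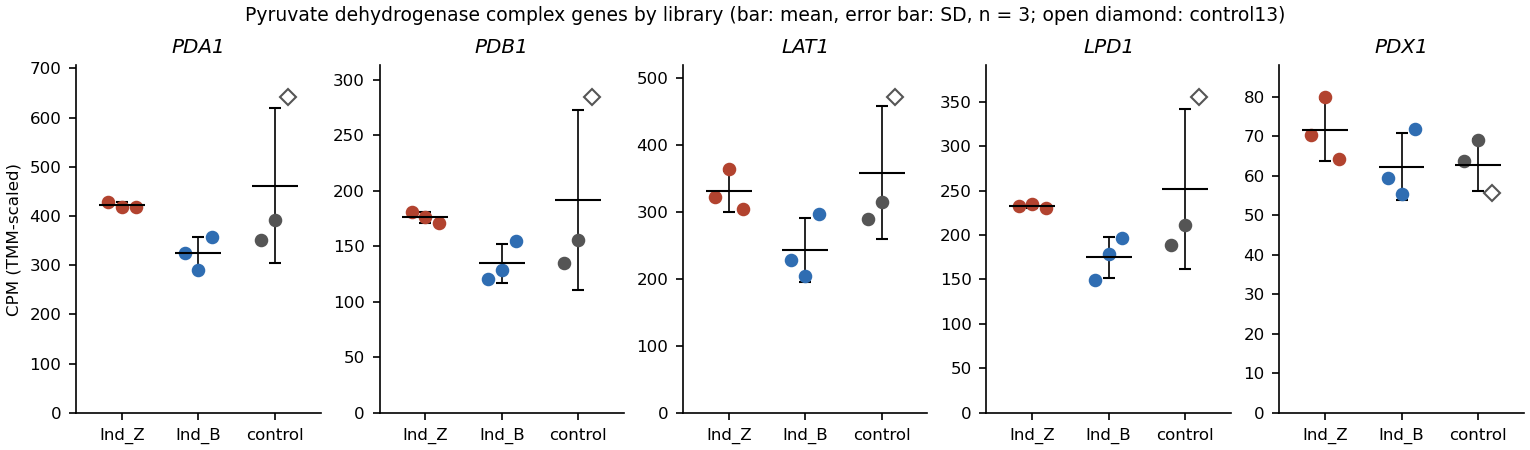
CPM of the pyruvate dehydrogenase complex genes in each library (vertical axes, linear, from 0, each with its own scale) for Ind_Z, Ind_B and control; bars are means, error bars SD of 3 libraries, and the open diamond is control13. PDA1, PDB1, LAT1 and LPD1 are higher in every Ind_Z library than in every Ind_B library and highest in control13, and PDX1 is not.

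For Ind_Z against control, 0 of the 7 genes picked by function were called by edgeR's quasi-likelihood test, with 2.13% of all genes called. None of the 7 had an unadjusted p under 0.05, as 19.3% of all genes had, DESeq2 also called 0 (7.28% of all genes called), and limma-voom with library quality weights called 1 higher (19.4% of all genes), MPC2 (0.71 ± 0.15, adjusted p = 0.00395). The changes of PDA1, PDB1, LAT1 and LPD1 were −0.13 ± 0.21, −0.12 ± 0.24, −0.12 ± 0.21 and −0.11 ± 0.22, and that of PDX1 was 0.18 ± 0.14. Without control13 the first 4 turned to 0.19 ± 0.12, 0.28 ± 0.12, 0.13 ± 0.16 and 0.22 ± 0.12, still not called (adjusted p of 0.134 to 0.585 in edgeR's quasi-likelihood test), while MPC2 was called and 13.1% of all genes were called higher. All Ind_Z libraries were then above both remaining controls for 4 of the 7 genes, MPC2, PDA1, PDB1 and LPD1, as for 30.5% of all genes.

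For Ind_B against control, 0 of the 7 genes were called by edgeR's quasi-likelihood test, with 0.147% of all genes called. At an unadjusted p under 0.05 there were 3 of the 7 (PDA1, LAT1 and LPD1), with 19.1% of all genes, and DESeq2 (4.92% of all genes called) and limma-voom (3.49%) each called 0. The changes were −0.51 ± 0.21 for PDA1, −0.50 ± 0.24 for PDB1, −0.56 ± 0.21 for LAT1, −0.52 ± 0.22 for LPD1 and −0.01 ± 0.14 for PDX1. Without control13 they were −0.20 ± 0.12, −0.11 ± 0.12, −0.32 ± 0.16, −0.20 ± 0.12 and −0.09 ± 0.13 in the same order, so the first 4 moved toward 0. Then 0 of the 7 were called, none at an unadjusted p under 0.05, with 0.728% of all genes called.

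Between the antifoams the carrier partner MPC2 and 4 genes of the complex were separated. Every Ind_Z library was above every Ind_B library for 5 of the 7 genes, MPC2, PDA1, PDB1, LAT1 and LPD1, where 21.4% of all genes showed this. In edgeR's fit to all libraries 0 of the 7 were called, with 0.424% of all genes called. None of the 7 had an unadjusted p under 0.05, as 25.5% of all genes had, and DESeq2 also called 0 (10.3% of all genes called). The changes were 0.38 ± 0.21 for PDA1, 0.38 ± 0.24 for PDB1, 0.44 ± 0.21 for LAT1, 0.41 ± 0.22 for LPD1 and 0.20 ± 0.14 for PDX1 (adjusted p of 0.209 to 0.377 in edgeR's quasi-likelihood test).

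Control13 is in neither group of that comparison, but its counts enter the scaling, the filter and the shared estimate of the spread. Without it, 5 of the 7 genes were called higher in Ind_Z than in Ind_B, with 14.2% of all genes called higher. They were MPC2 as above, PDA1 (0.39 ± 0.11, adjusted p = 0.0265), PDB1 (0.40 ± 0.11, adjusted p = 0.0268), LAT1 (0.45 ± 0.14, adjusted p = 0.0427) and LPD1 (0.42 ± 0.11, adjusted p = 0.0207), by edgeR's quasi-likelihood test. PDX1 (0.20 ± 0.12, adjusted p = 0.24) and MPC1 (−0.09 ± 0.19, adjusted p = 0.758) were not called. Limma-voom with library quality weights on all 9 libraries called 5 of the 7 genes, with 14.5% of all genes called higher. Its weight was 0.144 for control13 and 0.498 to 2.08 for the other libraries, so control13 counted for little in it. In the 6 antifoam libraries alone edgeR called 4 of the 7, MPC2, PDA1, PDB1 and LPD1, with 13.1% of all genes called higher.

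Ribosomal protein genes moved with these differences. Their median log2 CPM, relative to each gene's mean over all libraries, was 0.40, 0.54 and 0.51 in Ind_Z and −0.33, −0.56 and −0.64 in Ind_B. It was −0.29, −0.33 and 0.67 in control1, control12 and control13, so that it was high in Ind_Z, low in Ind_B and highest in control13. MPC2, PDA1, PDB1, LAT1 and LPD1 were likewise higher in every Ind_Z library than in every Ind_B library and highest in control13. Its part in the result was not tested.

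**Figure D3:**
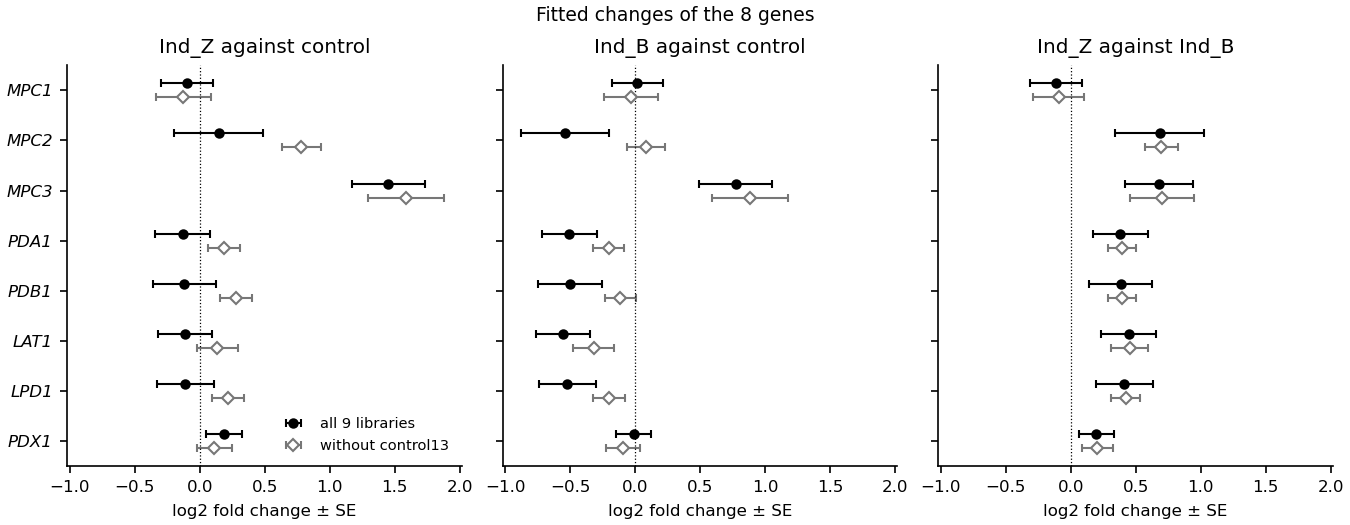
Fitted log2 fold changes (horizontal axis, points with SE) of the 8 genes for Ind_Z against control, Ind_B against control and Ind_Z against Ind_B; filled circles use all 9 libraries and open diamonds leave out control13. Without control13 the control comparisons of MPC2 and of PDA1, PDB1, LAT1 and LPD1 move upward, and the differences between the antifoams keep their place with shorter error bars.

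Ratios between genes of the complex were taken per length. By that measure PDA1 was 2.09 ± 0.0442 times PDB1 in Ind_Z, 2.11 ± 0.203 times in Ind_B and 2.14 ± 0.155 times in control (SD, n = 3 each). LPD1 was 0.464 ± 0.00843 times PDA1 in Ind_Z, 0.456 ± 0.0641 in Ind_B and 0.458 ± 0.00717 in control (SD, n = 3 each). PDX1 was 0.256, 0.258 and 0.248 times LAT1 in Ind_Z, 0.306, 0.320 and 0.284 in Ind_B, and 0.258, 0.257 and 0.139 in control1, control12 and control13. Thus PDX1 relative to LAT1 was higher in every Ind_B library than in any other library and lowest in control13.

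**Figure D4:**
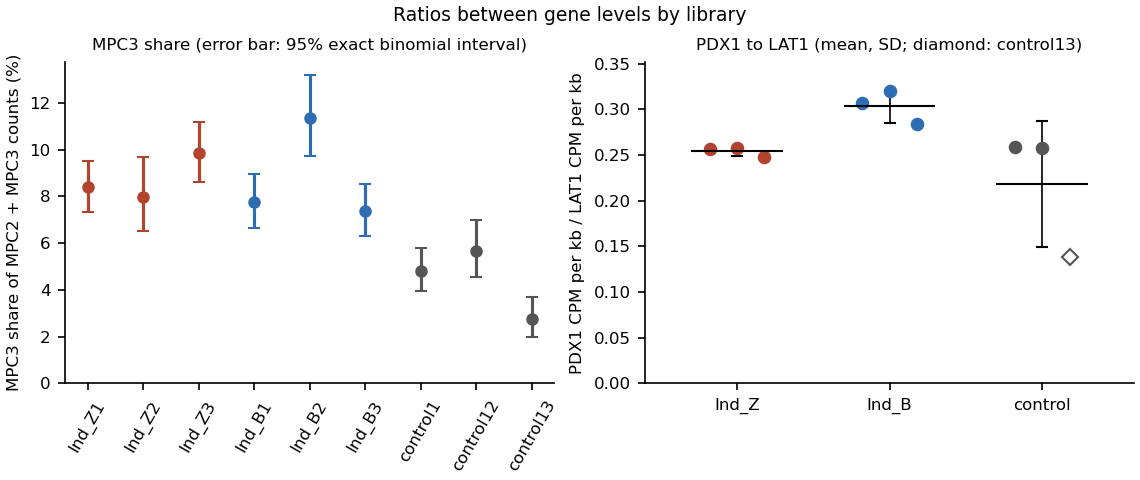
Left, the MPC3 share of MPC2 and MPC3 counts in each library (vertical axis in percent, error bars 95% exact binomial intervals); right, the ratio of PDX1 to LAT1 in CPM per kb by group (bars are means, error bars SD of 3 libraries, open diamond control13). The MPC3 share is 7.37% to 11.4% in antifoam libraries and 2.75% to 5.68% in controls, and the PDX1 to LAT1 ratio is 0.139 in control13 and at least 0.248 in every other library.

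Per length, the order of group means was alike in the groups with all libraries, but in control it rested in part on control13. In Ind_Z, MPC2 was at 478 ± 53.1, PDA1 at 334 ± 4.99, LAT1 at 228 ± 21.2, PDB1 at 160 ± 4.70 and LPD1 at 155 ± 1.41 CPM per kb of coding sequence (SD, n = 3). PDX1 followed at 58.0 ± 6.38, MPC1 at 48.6 ± 5.55 and MPC3 at 40.7 ± 8.66 CPM per kb in Ind_Z. Of these neighbours, the ranges of PDB1 and LPD1, of PDX1 and MPC1, and of MPC1 and MPC3 overlapped across libraries. Within single libraries, PDB1 was above LPD1 and MPC1 above MPC3 in 3 of 3, and PDX1 above MPC1 in 2 of 3.

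In Ind_B the same order held down to LPD1, with MPC2 at 297 ± 48.2 and LPD1 at 117 ± 15.6 CPM per kb, followed by MPC1 at 53.0 ± 12.3, PDX1 at 50.4 ± 6.88 and MPC3 at 25.7 ± 8.71. The ranges of MPC2 and PDA1, PDB1 and LPD1, and MPC1 and PDX1 overlapped there, each with the first gene higher in 2 of 3 libraries. In control libraries MPC2 was at 434 ± 270, LPD1 at 168 ± 60.2, MPC1 at 51.9 ± 8.85, PDX1 at 50.8 ± 5.43 and MPC3 at 15.3 ± 3.10 CPM per kb. Without control13 some control neighbours changed places. PDA1 (294) was then above MPC2 (278), LPD1 (133) above PDB1 (132) and PDX1 (53.7) above MPC1 (53.0 CPM per kb). With all 3 control libraries the only neighbours whose ranges did not overlap were LPD1 over MPC1 and PDX1 over MPC3. Within single control libraries, PDA1 was above LAT1 and LAT1 above PDB1 in 3 of 3. MPC2 was above PDA1 and MPC1 above PDX1 in 2 of 3, and PDB1 above LPD1 in 1 of 3. MPC3 was the lowest of the 8 genes in every group. Its range reached that of MPC1 only in Ind_Z, where MPC1 was still above it within each library.

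Likeness of pattern was measured as the root mean square difference between log2 CPM profiles over the 9 libraries, each centred on its own mean, among the 5649 genes whose counts averaged 50 or more. The genes nearest to MPC3 were ZEO1, a cell-surface protein gene linked to cell wall integrity (0.167), YGR161W-C (0.172), APJ1, a J-domain chaperone gene (0.179), RDH54, a DNA recombination gene (0.228), and MBF1, a transcriptional coactivator gene (0.23). ZEO1 was at 185, 214 and 253 CPM in Ind_Z, at 154, 210 and 104 CPM in Ind_B, and at 97.6, 95.0 and 99.7 CPM in control1, control12 and control13. MPC2 ranked 1377 and MPC1 ranked 1948 in nearness to MPC3.

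The dehydrogenase genes lay near each other. For PDB1 the nearest genes were LPD1 (0.060), PDA1 (0.084) and LSC2 (0.088), a gene of the tricarboxylic acid cycle enzyme succinyl-CoA ligase. For LPD1 they were PDB1 (0.060), APE2 (0.069) and LSC2 (0.074), and for PDA1 they were HPF1 (0.083), PDB1 (0.084) and TOM40 (0.085), which encodes the pore of the outer-membrane protein import complex. LAT1 had PCL5 (0.065), SPT21 (0.087) and SAH1 (0.095) nearest, with PDA1 at rank 6. PDX1 was nearest to ABP140 (0.047), UBP10 (0.047) and DBP3 (0.051), and no other gene of the complex ranked better than 3524 for it. MPC2 was nearest to ERP1 (0.095), YLR179C (0.121) and the ribosomal protein gene RPS21B (0.123), and MPC1 to APS2 (0.084), BET3 (0.088) and GLD1 (0.093). These values describe 9 libraries in which group and control13 shape every profile.

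Short sequence motifs were searched on both strands in the 300 bases before each coding start in R64. CCCCT, the core of the stress response element, was in 1 of the 8 windows, that of PDA1, and in 22.2% of 6007 nuclear gene windows. CCAAT, the letters recognised by the Hap complex, an activator of respiratory genes, was in 4 of the 8 windows, those of MPC1, MPC3, LAT1 and LPD1, and in 41.8% of all windows. MPC3 had the most matches of the 8 genes, 3, but how many of all windows held as many was not counted. Whether the Hap complex acts on MPC3 was not tested. The 2 matches closest to its coding start are shown as read on the plus strand, with the match in capitals.
MPC3 at chrVII:977186-977214 (R64): tggtgcgttgcaATTGGagtattggagaa
MPC3 at chrVII:977194-977222 (R64): tgcaattggagtATTGGagaaaattttct
These windows overlap, and the matches begin 138 and 130 bases before the coding start.

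The genes around the complex were grouped in 7 lists of 55 genes in all, every one of which was measured, with GCV3 in 2 of the lists. For Ind_Z against control edgeR called 1 of the 55, with 17 at an unadjusted p under 0.05, 7 called by DESeq2 and 21 by limma-voom. Of all genes 2.13% were called by edgeR, 19.3% had an unadjusted p under 0.05, 7.28% were called by DESeq2 and 34.7% by limma-voom. For Ind_B against control edgeR called 0, with 18 at an unadjusted p under 0.05, 4 called by DESeq2 and 3 by limma-voom, beside 0.147%, 19.1%, 4.92% and 3.49% of all genes. For Ind_Z against Ind_B edgeR called 0, with 17 at an unadjusted p under 0.05, 6 called by DESeq2 and 20 by limma-voom, beside 0.424%, 25.5%, 10.3% and 24.5% of all genes. Without control13 edgeR called 10 of the 55 for Ind_Z against control, 0 for Ind_B against control and 14 for Ind_Z against Ind_B, where 19.6%, 0.728% and 23.5% of all genes were called. The gene called by edgeR with all libraries was ADR1, encoding an activator of genes for ethanol and fatty acid use. It rose in Ind_Z against control, where 2.13% of all genes were called, to 985, 983 and 1073 CPM in Ind_Z, against 393, 590 and 279 CPM in control1, control12 and control13. The change was 1.27 ± 0.25 (adjusted p = 0.0318 in edgeR's quasi-likelihood test) and 1.05 ± 0.19 without control13. In Ind_B it was at 949, 795 and 713 CPM, a change of 0.96 ± 0.25 against control that was not called (adjusted p = 0.117). HAP4, encoding the regulated subunit of the Hap complex, was at 290, 403 and 317 CPM in Ind_Z, at 182, 247 and 325 CPM in Ind_B, and at 226, 251 and 236 CPM in control1, control12 and control13. The change of HAP4 for Ind_Z against control was 0.50 ± 0.21, not called (adjusted p = 0.226 in edgeR's quasi-likelihood test). HAP2, encoding a DNA-binding subunit of the Hap complex, had the lowest p between the antifoams (−0.35 ± 0.14, adjusted p = 0.164). Without control13 edgeR called 2 of the 8 regulators higher in Ind_Z against control, with 13.1% of all genes called higher. They were ADR1 and CAT8 (0.38 ± 0.10, adjusted p = 0.028). With all libraries 4, 2 and 2 of the 8 had an unadjusted p under 0.05 in the 3 comparisons, in the order below. DESeq2 called 2, 1 and 0, and limma-voom 4, 1 and 2. Median changes of the 8 regulators were −0.08 for Ind_Z against control, 0.16 for Ind_B against control and −0.18 for Ind_Z against Ind_B, where the medians of all genes tested were −0.03, 0.01 and −0.03.

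The regulators of the complex itself are the kinases Pkp1 and Pkp2, which switch it off by phosphorylating Pda1, and the phosphatases Ptc5 and Ptc6, which reverse that. None of the 4 was called in any comparison by edgeR's quasi-likelihood test, with all libraries or without control13, or by DESeq2 or limma-voom. Those fits called 0.147% to 34.7% of all genes. For Ind_Z against control 1 of the 4 (PKP1) had an unadjusted p under 0.05, as 19.3% of all genes had. Median changes of the 4 were −0.25 for Ind_Z against control, −0.12 for Ind_B against control and −0.14 for Ind_Z against Ind_B. The medians of all genes tested were −0.03, 0.01 and −0.03. PKP1 had the lowest p in both comparisons with control, at 23.3 ± 3.09 CPM in Ind_Z, 25.0 ± 4.00 CPM in Ind_B and 31.3 ± 4.88 CPM in control (SD, n = 3 each; adjusted p = 0.224 and 0.351). PTC6 had the lowest p between the antifoams, at 75.2 ± 7.25 CPM in Ind_Z and 91.5 ± 15.3 CPM in Ind_B (SD, n = 3 each; −0.28 ± 0.17, adjusted p = 0.317).

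Lpd1 also serves the alpha-ketoglutarate dehydrogenase complex (KGD1, KGD2 and KGD4) and the glycine cleavage system (GCV1, GCV2 and GCV3). All 6 of these genes had negative fitted changes in both comparisons with control, with medians of −0.53 for Ind_Z and −0.63 for Ind_B. The medians of all genes tested were −0.03 and 0.01. In edgeR's fit to all libraries 0 of the 6 were called for either antifoam, beside 2.13% (Ind_Z) and 0.147% (Ind_B) of all genes. At an unadjusted p under 0.05 there were 3 (Ind_Z) and 5 (Ind_B), beside 19.3% and 19.1% of all genes. DESeq2 called 1 and 0 (7.28% and 4.92% of all genes), and limma-voom 2 and 0 (34.7% and 3.49%). Without control13 the medians were −0.15 and −0.24, and the change of KGD2 for Ind_Z against control was positive (0.03 ± 0.09). GCV2, encoding the decarboxylase of glycine cleavage, was then called lower in Ind_Z against control (−0.76 ± 0.24, adjusted p = 0.0486), as 6.54% of all genes were. GCV2 was at 24.2 ± 4.35 CPM in Ind_Z, 28.5 ± 8.95 CPM in Ind_B and 51.1 ± 18.1 CPM in control (SD, n = 3 each). Between the antifoams edgeR and DESeq2 called 0 (0.424% and 10.3% of all genes) and limma-voom 1 (24.5%). None had an unadjusted p under 0.05, as 25.5% of all genes had, and the list had a median of 0.04. KGD2 was at 132 ± 3.57 CPM in Ind_Z and 113 ± 4.58 CPM in Ind_B (SD, n = 3 each). It had the lowest p (0.23 ± 0.14, adjusted p = 0.31 in edgeR's quasi-likelihood test).

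The lipoyl groups of Lat1 and of the related complexes are made from mitochondrial fatty acid synthesis and attached by ligases. Of 11 such genes edgeR called 0 in any comparison with all libraries. For Ind_Z against control, Ind_B against control and Ind_Z against Ind_B, 1, 3 and 3 had an unadjusted p under 0.05. Of all genes 19.3%, 19.1% and 25.5% did, and edgeR called 2.13%, 0.147% and 0.424%. DESeq2 called 1, 1 and 0 (7.28%, 4.92% and 10.3% of all genes), and limma-voom 2, 1 and 2 (34.7%, 3.49% and 24.5%). CEM1, encoding a condensing enzyme of that synthesis, had the lowest p in both comparisons with control, at 16.6 ± 2.01 CPM in Ind_Z, 15.6 ± 0.527 CPM in Ind_B and 26.1 ± 6.74 CPM in control (SD, n = 3 each; adjusted p = 0.108 and 0.117). HTD2, encoding a dehydratase of the same synthesis, had the lowest p between the antifoams (−0.39 ± 0.13, adjusted p = 0.117). Without control13 the lipoate ligase gene AIM22 (also LIP3) was called lower in Ind_Z, against control (−0.48 ± 0.12, adjusted p = 0.0232) and against Ind_B (−0.39 ± 0.11, adjusted p = 0.0333). PPT2, which adds the carrier protein's prosthetic group, was then called lower in Ind_Z against Ind_B (−0.57 ± 0.16). Of all genes 6.54% were called lower in Ind_Z against control in that fit, and 9.31% against Ind_B.

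Carriers that bring cofactors into mitochondria made up a list of 5 genes. All 5 had negative changes for Ind_Z against Ind_B (median −0.38, beside −0.03 for all genes tested). With all libraries edgeR called 0 in each comparison. For Ind_Z against control, Ind_B against control and Ind_Z against Ind_B, 1, 1 and 2 had an unadjusted p under 0.05. Of all genes 19.3%, 19.1% and 25.5% did, and edgeR called 2.13%, 0.147% and 0.424%. DESeq2 called 0, 0 and 1 (7.28%, 4.92% and 10.3% of all genes), and limma-voom 1, 0 and 3 (34.7%, 3.49% and 24.5%). The NAD carrier gene YEA6 was at 37.7 ± 1.21 CPM in Ind_Z and 49.9 ± 3.52 CPM in Ind_B (SD, n = 3 each; −0.40 ± 0.11, adjusted p = 0.08). Without control13 YEA6 (adjusted p = 0.0134), its paralog YIA6 (adjusted p = 0.0489) and LEU5, linked to coenzyme A uptake (adjusted p = 0.0401), were called lower in Ind_Z than in Ind_B, with 9.31% of all genes called lower. YIA6 had the lowest p for Ind_Z against control (−0.40 ± 0.15, adjusted p = 0.179) and LEU5 for Ind_B against control (0.43 ± 0.18, adjusted p = 0.24). The difference between these carriers and the pyruvate carriers was not tested.

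Among 13 other producers and users of pyruvate edgeR called 0 in each comparison with all libraries. In Ind_Z against control, Ind_B against control and Ind_Z against Ind_B, 5, 6 and 6 had an unadjusted p under 0.05. Of all genes 19.3%, 19.1% and 25.5% did, and edgeR called 2.13%, 0.147% and 0.424%. DESeq2 called 2, 1 and 3 (7.28%, 4.92% and 10.3% of all genes), and limma-voom 8, 0 and 8 (34.7%, 3.49% and 24.5%). Of the 13, 10 had positive changes for Ind_Z against Ind_B (median 0.72, beside −0.03 for all genes tested). PDC5, a pyruvate decarboxylase gene, was at 248 ± 70.8 CPM in Ind_Z and 103 ± 16.4 CPM in Ind_B (SD, n = 3 each; 1.27 ± 0.29, adjusted p = 0.072). The lowest p for Ind_Z against control was that of the lactate dehydrogenase gene DLD1 (−0.56 ± 0.15, adjusted p = 0.0793), and for Ind_B against control that of CYB2, another lactate dehydrogenase gene (−1.41 ± 0.31, adjusted p = 0.0898). Without control13 edgeR called 4 of the 13 higher and 1 lower in Ind_Z than in Ind_B, with 14.2% of all genes called higher and 9.31% lower: PDC5, the pyruvate kinase gene CDC19 (0.77 ± 0.15), the acetolactate synthase gene ILV2 (0.86 ± 0.12) and the malic enzyme gene MAE1 (1.16 ± 0.27) were higher and PDC6 was lower (−1.06 ± 0.22). For Ind_Z against control it then called 2 higher, PDC5 (1.17 ± 0.27, adjusted p = 0.0156) and ILV2 (0.74 ± 0.13, adjusted p = 0.00564). It called 1 lower, DLD1 (−0.43 ± 0.12, adjusted p = 0.0346). Of all genes 13.1% were called higher and 6.54% lower in that comparison.

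The other routes to acetyl-CoA and the citrate synthases held 9 genes, of which edgeR called 0 in each comparison with all libraries. In Ind_Z against control, Ind_B against control and Ind_Z against Ind_B, 2, 2 and 4 had an unadjusted p under 0.05. Of all genes 19.3%, 19.1% and 25.5% did, and edgeR called 2.13%, 0.147% and 0.424%. DESeq2 called 1, 1 and 2 (7.28%, 4.92% and 10.3% of all genes), and limma-voom 4, 1 and 4 (34.7%, 3.49% and 24.5%). ALD6, the cytosolic acetaldehyde dehydrogenase gene, was at 1267 ± 493 CPM in Ind_Z and 580 ± 124 CPM in control (SD, n = 3 each; 1.13 ± 0.29, adjusted p = 0.0783, and called at 1.28 ± 0.30 without control13). ACS2, an acetyl-CoA synthetase gene, was at 639 ± 68.8 CPM in Ind_Z, 305 ± 107 CPM in Ind_B and 720 ± 325 CPM in control (SD, n = 3 each). It had the lowest p for Ind_B against control (−1.24 ± 0.33, adjusted p = 0.122) and for Ind_Z against Ind_B (1.07 ± 0.32, adjusted p = 0.0985), and the second difference was called without control13 (1.08 ± 0.22, adjusted p = 0.00672). Without control13 edgeR called 2 of the 9 higher in Ind_Z against control, ALD6 and the mitochondrial acetaldehyde dehydrogenase gene ALD4 (1.14 ± 0.35, adjusted p = 0.047), and 1 lower, the mitochondrial citrate synthase gene CIT3 (−1.02 ± 0.30, adjusted p = 0.0398). Against Ind_B it called 3 higher, ACS2, another acetyl-CoA synthetase gene, ACS1 (1.07 ± 0.33, adjusted p = 0.0407), and another mitochondrial acetaldehyde dehydrogenase gene, ALD5 (0.87 ± 0.21, adjusted p = 0.0164), and again CIT3 lower (−0.87 ± 0.28, adjusted p = 0.049). Of all genes 13.1% were then called higher and 6.54% lower in Ind_Z against control. Against Ind_B the shares were 14.2% and 9.31%.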

How the data were processed

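Raw counts per gene were deposited as 1 table of 6357 rows and 9 columns, 1 per library per the file headers, and all columns were used. Columns were matched to samples by name, and control12 and control13, which resemble no sample title, count as controls that carry no number. Alignment and counting tools listed in the submitters' processing notes are TopHat2 2.0.9 and, for reads per gene, HTSeq 0.6.0. The sources used here do not give the build, annotation or strandedness, so coordinates are of R64 and antisense reads cannot be told apart. Row names were matched to R64 (5848 of 6357).

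The counts went through edgeR 4.0.16 (R 4.3.3) with filterByExpr (6137 genes), TMM scaling and a quasi-likelihood fit with 1 mean per group and 6 residual degrees of freedom. DESeq2 1.42.0, limma 3.58.1 (voom), RLE factors, no filter, leaving out 36 abundant or mitochondrially encoded rows, 6-library fits and leaving out each library were alternatives. Log2 CPM used a prior count of 2. BLAST 2.17.0 compared coding sequences. Only the edgeR fit was run on simulated counts as a test, and the other steps were not.

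The genes, lists and alternatives were chosen with earlier results of these data known. From each list the text names called genes (up to 4 by lowest p) or the gene of lowest p; genes named for calls without control13, HAP4, and the motif sites shown, were picked after their values were seen. Same-numbered libraries of Ind_Z and Ind_B did not deviate alike from their group means: the correlations of deviations were −0.023, −0.238 and −0.442. Between differently numbered libraries they were −0.066 to 0.331. Deviations within a group sum to 0, so these values constrain one another and cannot show whether libraries shared a batch.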

Additional observations from a re-analysis of the deposited data

How the results depend on the processing

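The count of genes called depended on the libraries and the tool. For Ind_Z against control edgeR called 131 genes, DESeq2 447, limma-voom with quality weights 2131, the fit to the 6 libraries 59, and fits leaving out 1 library 16 (without Ind_Z replicate 3) to 1213 (without control13). For Ind_B against control it called 9, DESeq2 302, limma-voom 214, the 6-library fit 1, and fits leaving out 1 library 0 to 332, the highest without control12. For Ind_Z against Ind_B it called 26, DESeq2 631, limma-voom 1501, the 6-library fit 1251, and fits leaving out 1 library 0 to 1453, the highest without control13. Of the 7 genes picked by function 0 were called in each comparison. Limma-voom called 1 for Ind_Z against control and 5 for Ind_Z against Ind_B, the 6-library fit called 4 for Ind_Z against Ind_B, and leaving out 1 library gave 0 to 1, 0 to 0 and 0 to 5 for Ind_Z against control, Ind_B against control and Ind_Z against Ind_B. A fit of the 6 antifoam libraries with a replicate block called 572 genes and 1 of the 7 (MPC2), against 1251 and 4 without the block. Whether equal replicate numbers mark a shared batch is not known. No paired analysis was possible for the comparisons with control because its columns carry no shared numbers.

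No change whose sign turned was called by edgeR with all 9 libraries, while limma-voom called MPC2 for Ind_Z against control (0.71), which was negative without control1 or control12. For Ind_Z against control limma-voom gave 0.14 for PDA1, 0.24 for PDB1, 0.090 for LAT1 and 0.18 for LPD1. Leaving out 1 library gave −0.29 to 0.19 for PDA1, −0.32 to 0.28 for PDB1, −0.25 to 0.13 for LAT1, −0.28 to 0.22 for LPD1, −0.10 to 0.78 for MPC2 and −0.21 to 0.057 for MPC1. For Ind_B against control MPC1 was at −5.5e-05 with DESeq2, −0.00056 with RLE factors and −0.081 with limma-voom, and at −0.16 to 0.17 leaving out 1 library. MPC2 was at 0.11 with limma-voom and −0.78 to 0.083 leaving out 1 library, and PDX1 at −0.14 to 0.062. For Ind_Z against Ind_B MPC1 was at −0.27 to 0.060. MPC3 for Ind_B against control was at 0.51 to 0.99 leaving out 1 library. The low counts of MPC3 limit its precision in single libraries.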
